A study of Gallus gallus with 4 samples.

Results

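Fragments of serine tRNAs were followed through the tRNA count tables of 4 small RNA libraries from chick (Gallus gallus). They are the 5 rows whose names start with tRNA-Ser-, out of 54 tRNA rows and 24689 rows in the 6 tables of a library. The libraries come from wild-type embryos at Hamburger-Hamilton stage HH9-, incubated for about 30 h at 37 °C, and from the midbrain region of the head alone. RNA of 19 to about 38 nucleotides was cut from a gel. The 2 oxidized libraries were cloned after sodium periodate treatment of the RNA, and the 2 total libraries from RNA without that treatment, as the reference. The labels do not state whether the replicates are separate collections of embryos. A p-value here therefore speaks only of how far these libraries spread, and that spread may be technical.

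A serine tRNA carries serine to the ribosome for the codons TCN and AGY, where N is any base and Y is C or T. It belongs, with leucine and selenocysteine tRNAs, to the tRNAs with a long variable arm, and seryl-tRNA synthetase recognises that arm and not the anticodon. The same enzyme also charges selenocysteine tRNA with serine, which is then converted to selenocysteine. Cut tRNAs give short fragments that are cloned with miRNAs and piRNAs. Periodate attacks the last ribose of an RNA where both of its hydroxyl groups are free. RNAs whose last ribose is 2′-O-methylated, as in piRNAs, therefore stay clonable.

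The rows are tRNA-Ser-TCY, tRNA-Ser-AGY, tRNA-Ser-TCG, tRNA-Ser-TCA and tRNA-Ser-TCA(m), and the letters spell the codon that is read, not the anticodon. RefSeq names of a newer assembly, GRCg7b, which is not the build of the counts, list 23 serine tRNA genes among 303 tRNA genes. Of these, 8 have the anticodon AGA, which pairs with TCY codons, and 8 have GCU, for AGY. UGA, for TCA, has 4 and CGA, for TCG, has 3. The files hold counts per row and no reads, so the part of the tRNA, the fragment length and the end were not analysed here. How reads that map to several tRNA genes were counted is not given in the sources used here, so the split between similar rows is uncertain.

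The 6 tables held 10981001 to 17962725 assigned reads per library. The tRNA table took 36.1% and 36.0% of them in the oxidized libraries and 14.1% and 18.7% in the total libraries. That table held 2533674 to 5075804 reads per library. Each serine value is given both as counts per 1000000 assigned reads (CPM) and as a share of the tRNA table, since the first also moves with what else is in the library: miRNA took 75.6% and 68.2% of total libraries and at most 1.62% of oxidized ones. The tissue label could not be checked against marker genes, since 0 of 24356 gene and miRNA IDs matched a RefSeq name. These are bulk libraries, so the cells that the reads came from cannot be told. The groups differ by a treatment of RNA and not of cells.

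Serine tRNA reads took a far higher share after oxidation, and on both scales. The oxidized libraries had 35612 (replicate 1) and 42706 (replicate 2) of them, the total libraries 2513 and 2561. As CPM these were 3243 and 3033 against 140 and 171, so the lowest oxidized library stood far above the highest total library. The mean rose 20.2-fold, from 156 ± 22.2 to 3138 ± 149 CPM (mean ± SD, n = 2 each). The log2 fold change of the sum was 4.33 with an SE of 0.23, and its edgeR adjusted p was 0.0019, in a fit where 15.4% of all features were called higher. Scaling without miRNA reads took this log2 fold change to 2.52 (edgeR adjusted p = 0.0038). Within the tRNA table the serine share was 0.898% and 0.841% after oxidation and 0.0992% and 0.0916% without it. Exact 95% binomial intervals were narrow, at 0.888 to 0.907% for the first oxidized library and 0.0953 to 0.103% for the first total library. They take every read as a separate molecule, so they are too narrow where reads are copies, and they cover no spread between libraries. By an untested estimate given below, the 35612 serine reads of the first oxidized library stand for only about 292 molecules. This share rose 9.11-fold (log2 fold change 3.19, SE 0.29, edgeR adjusted p = 0.0031, with 12.6% of all features called higher), and the log2 fold change was 1.91 with glutamate and glycine rows left out of the tRNA sum (adjusted p = 0.0061). The same-numbered libraries gave 9.05-fold and 9.18-fold for the share of tRNA reads, and 23.2-fold and 17.7-fold for CPM. These ratios rest on a pairing that no label states, so their closeness on the tRNA scale may come from the pairing. With 2 libraries against 2 there are 6 arrangements, and the exact two-sided permutation p of the serine share was 0.333 on both scales, the smallest it can be.

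Of the 5 rows, 3 had reads in every library, and on both scales tRNA-Ser-TCY and tRNA-Ser-AGY were called higher after oxidation while tRNA-Ser-TCG was not called (edgeR, adjusted p under 0.05). tRNA-Ser-TCA had no read after oxidation and passed the expression filter only through the total libraries, so a lower value was all it could show and its call is not counted. Among all 1326 features tested, 15.7% were called higher and 57.3% lower on the CPM scale. On the tRNA scale the shares were 12.7% and 60.4%. Among the 50 tRNA rows tested, 32.0% were called higher and 22.0% lower as CPM. As a share of tRNA reads these became 22.0% and 34.0%. In CPM, tRNA-Ser-TCY, tRNA-Ser-AGY and tRNA-Ser-TCG had log2 fold changes of 4.73, 2.66 and 1.08. The median was 0.46 over the 50 tRNA rows and -5.25 over all features. These medians and the shares called lower include rows without a read after oxidation, such as tRNA-Ile-ATC, which could show only a lower value. With so few serine rows this is a description.

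tRNA-Ser-TCY, the row for serine codons TCC and TCT, carried most of the change. Oxidized replicates 1 and 2 held 33481 and 39823 of its reads, while total replicates 1 and 2 held 1786 and 1821. These are 3049 and 2828 CPM against 99.4 and 122 CPM, with no overlap between groups. The row rose 26.6-fold in CPM, from 111 ± 15.8 to 2938 ± 156 (n = 2 per group; log2 fold change 4.73, SE 0.23, edgeR adjusted p = 0.0017). Within the tRNA table it went from 0.0705% and 0.0652% to 0.844% and 0.785%, a 12.01-fold higher share (log2 fold change 3.59, SE 0.28, edgeR adjusted p = 0.0023). Scaling without miRNA reads took the CPM log2 fold change of this row to 2.92 (adjusted p = 0.0037), and leaving glutamate and glycine rows out of the tRNA sum took that of its tRNA share to 2.31 (adjusted p = 0.0041). In mean CPM it ranked 19th of 54 tRNA rows in the total libraries and 8th in the oxidized libraries. By its CPM ratio it was the 4th of the 48 tRNA rows with reads in both groups, behind 3 alanine rows.

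tRNA-Ser-AGY, the row for the other serine codon pair AGC and AGT, also rose, by less. It held 1862 and 2105 reads after oxidation and 420 and 405 in total libraries. That is 170 and 149 CPM against 23.4 and 27.1, again with no overlap. The mean rose 6.32-fold, from 25.2 ± 2.63 to 160 ± 14.2 CPM (n = 2 per group), with a log2 fold change of 2.66, an SE of 0.34 and an edgeR adjusted p of 0.0063. The share of tRNA reads was 0.0469% and 0.0415% after oxidation and 0.0166% and 0.0145% without it, 2.85-fold higher (log2 fold change 1.51, SE 0.46, edgeR adjusted p = 0.036). With the replicate number as a block the CPM call held (adjusted p = 0.021), but the tRNA-scale call did not (log2 fold change 1.51, edgeR adjusted p = 0.23). Without total replicate 1 or 2 the row was called on neither scale (adjusted p = 0.21 and 0.18 for CPM, 0.24 and 0.27 for the tRNA share). Scaling without miRNA reads took its log2 fold change to 0.84 (adjusted p = 0.16), and leaving glutamate and glycine rows out of the tRNA sum took it to 0.23 (adjusted p = 0.69).

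tRNA-Ser-TCG did not pass on either scale, and its oxidized replicates differed. It had 269 reads in oxidized replicate 1 but 778 in oxidized replicate 2, and 291 and 322 in the total libraries. As CPM these were 24.5 and 55.2 against 16.2 and 21.5, all oxidized values above the total ones (means 39.9 ± 21.7 and 18.9 ± 3.78 CPM). The log2 fold change was 1.08 with an SE of 0.60 and an edgeR adjusted p of 0.19. As a share of tRNA reads, oxidized replicate 1 lay below both total libraries and oxidized replicate 2 above them: 0.00678% and 0.0153% against 0.0115% and 0.0115%. The log2 fold change there was -0.06 (SE 0.65, edgeR adjusted p = 0.94), and it turned to 0.41 without oxidized replicate 1. The CPM value depended on both oxidized libraries: the log2 fold change was 1.55 without replicate 1 and 0.38 without replicate 2. Each of these fits leaves a lone oxidized library, so no call is drawn from them. When miRNA reads were not counted in the library size, the CPM value turned to -0.73 (adjusted p = 0.36).

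tRNA-Ser-TCA held 16 and 13 reads in total replicates 1 and 2 and none in either oxidized library. It stood at 0.891 and 0.870 CPM in the total libraries. A count of 0 allows up to 0.120 CPM over both oxidized libraries (3 reads), but only if every read is a separate molecule. At an unchanged CPM, 22.1 reads would have been expected over both oxidized libraries, and at an unchanged share of tRNA reads 49.6. An oxidized library may hold about 122 or 130.5 reads per molecule cloned, an untested estimate from gene rows with reads in a single oxidized library. By it those expected reads are 0.174 and 0.392 molecules, and the bound of 0.120 CPM is far too low. Whether the row was lower after oxidation therefore cannot be told, and no fold is given. In all 4 libraries tRNA-Ile-ATC had exactly the same counts, and so had 3 features outside the tRNA table. The row tRNA-Ser-TCA(m), whose suffix the labels do not explain, was at 0 in all 4 libraries. That allows up to 0.0517 CPM over them, again with every read taken as a separate molecule.

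The same estimate puts the serine reads of the oxidized libraries at 292 and 327 molecules. tRNA-Ser-TCY would be 274 and 305 of them and tRNA-Ser-AGY 15.3 and 16.1. For tRNA-Ser-TCG it gives 2.20 and 5.96 molecules, the row whose oxidized replicates were furthest apart. In a further fit only the oxidized counts were converted to molecules, and the total counts stayed as reads. There tRNA-Ser-TCY (log2 fold change 4.73, edgeR adjusted p = 1.3e-17) and tRNA-Ser-AGY (2.64, adjusted p = 1.4e-06) were still called higher in CPM. As the groups are then in unlike units, these p-values are no stronger support than those of the reads.

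**Figure D1:**
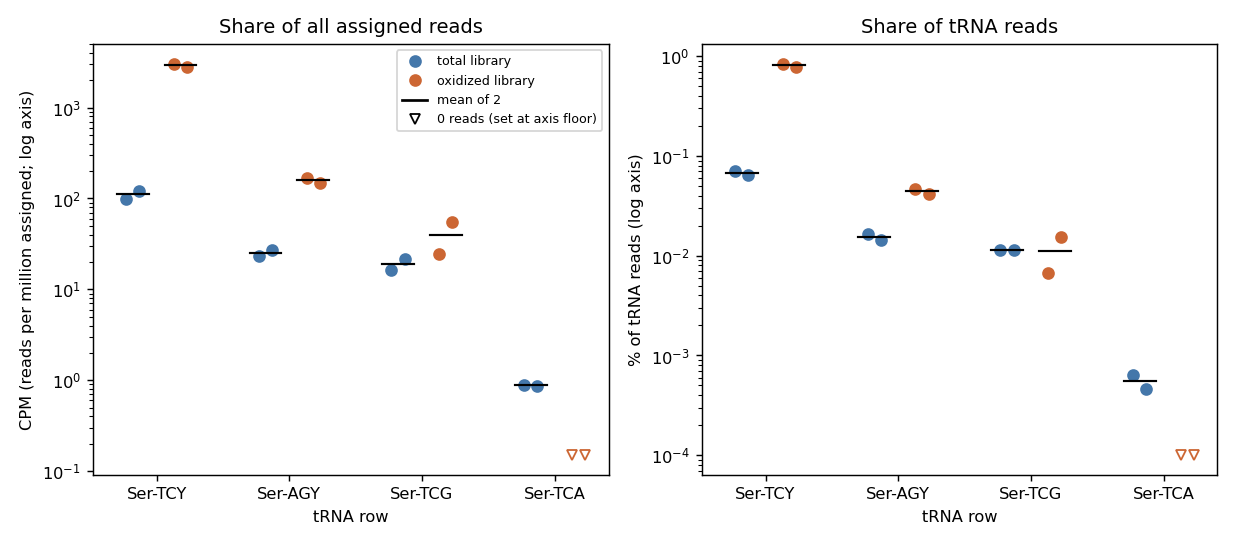
Level of 4 serine tRNA rows in each library, as CPM (left) and as % of tRNA reads (right), both on log axes; points are libraries, horizontal lines the mean of 2 libraries, and open triangles libraries with 0 reads, set at the foot of the axis. The oxidized points of Ser-TCY and Ser-AGY lie above their total points in both panels, while those of Ser-TCG lie on either side of them in the right panel.

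The serine reads thus came to be almost all from tRNA-Ser-TCY. That row made up 94.0% and 93.2% of serine reads after oxidation and 71.1% in each total library. tRNA-Ser-AGY went from 16.7% and 15.8% of serine reads to 5.23% and 4.93%, although its own CPM was higher. The tRNA-Ser-TCG part went from 11.6% and 12.6% to 0.755% and 1.82%, and tRNA-Ser-TCA from 0.637% and 0.508% to 0. tRNA-Ser-TCY outnumbered tRNA-Ser-AGY 17.98- and 18.9-fold in the oxidized libraries and 4.25- and 4.50-fold in the total libraries. This ratio was 4.22 times as high after oxidation (exact permutation p = 0.333, the smallest possible), and its replicates differed far less than the groups. RefSeq names of GRCg7b, which is not the build of the counts, list 8 genes each for the AGA and GCU anticodons. Whether gene number bears on these reads was not tested. Without tRNA-Ser-TCY, the remaining serine reads were 194 and 205 CPM against 40.5 and 49.5, 4.43-fold higher after oxidation, and 2.003-fold higher as a share of tRNA reads.

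**Figure D2:**
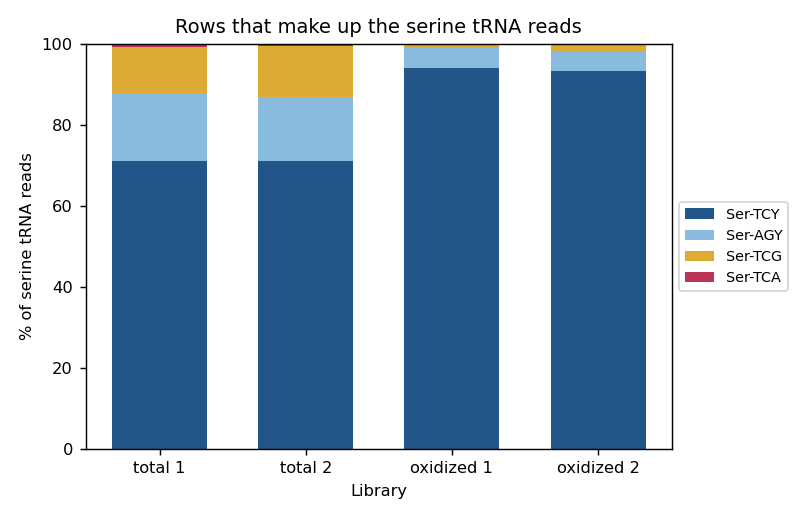
Share of each row in the serine tRNA reads of each library, in %; bars are libraries and colours are rows. Ser-TCY fills 71.1% of both total bars and 94.0% and 93.2% of the oxidized bars.

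Serine reads were nearly all sense. In the oxidized libraries no serine row had a reverse-strand read, and neither had any other tRNA row. In total libraries tRNA-Ser-TCY had 3 and 1 antisense reads and tRNA-Ser-AGY 2 in each. tRNA-Ser-TCG had 9 and 21. Taking antisense reads away left the rise of the serine sum at 20.3-fold in CPM and 9.18-fold in the tRNA share.

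Set beside the other amino acids, serine had the second-highest ratio of 21 sums on both scales. Alanine stood above it with 31.8-fold in CPM and 14.5-fold in the tRNA share. Tyrosine stood below it with 14.8-fold and 6.68-fold. The paired ratios of neighbours overlapped in CPM between serine (17.7 to 23.2) and tyrosine (11.9 to 18.4), but in the tRNA share the serine values of 9.05 and 9.18 lay clear of tyrosine (6.15 and 7.18) and of alanine (14.0 and 15.0). By level, the serine sum moved from place 13 of 21 in the total libraries to place 7 in the oxidized libraries. Of the 21 sums, 38.1% were called higher in CPM and 28.6% in the tRNA share.

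**Figure D3:**
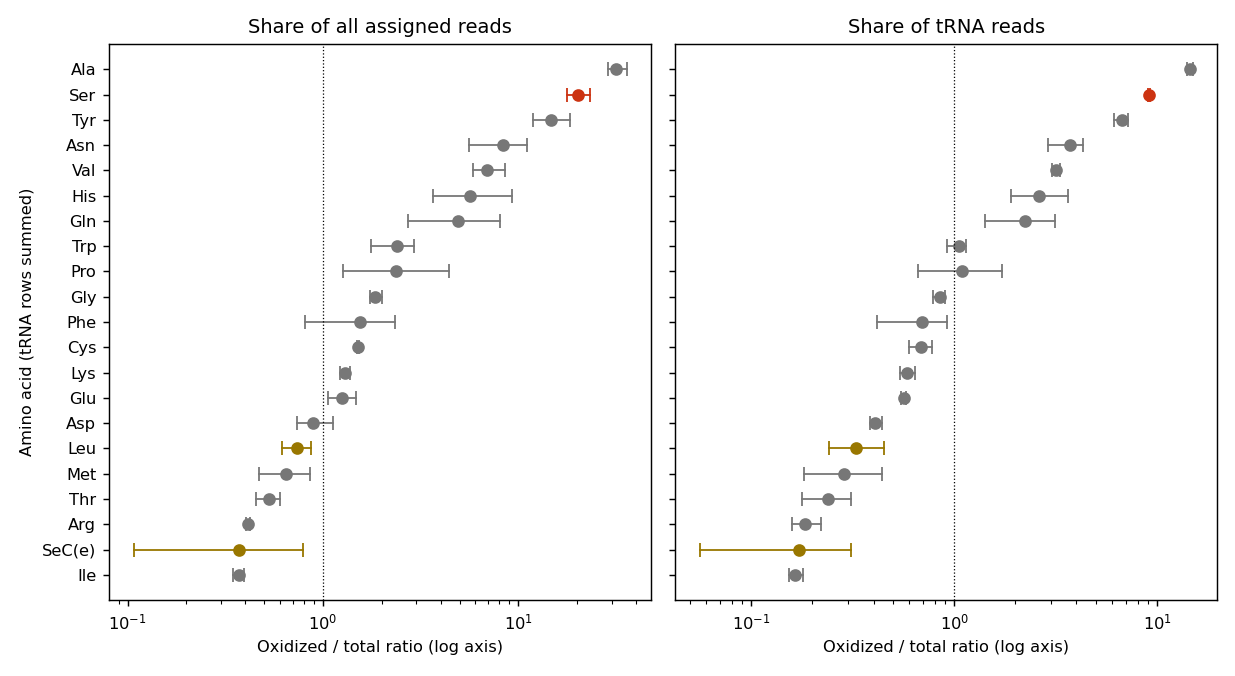
Ratio of the oxidized to the total share for the tRNA rows summed by amino acid, on log axes, as share of all assigned reads (left) and of tRNA reads (right); dots are ratios of means, bars span the ratios of the same-numbered libraries. Serine (red) is second from the top in both panels, and leucine and selenocysteine (brown) lie below 1.

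For the other tRNAs with a long variable arm, neither the leucine sum nor the selenocysteine row was called higher. Leucine rows summed to 333 and 427 CPM after oxidation against 537 and 492 in total libraries (log2 fold change -0.44, SE 0.25, edgeR adjusted p = 0.21), and their share of tRNA reads fell (log2 fold change -1.61, SE 0.39, edgeR adjusted p = 0.016). The CPM value of the leucine sum moved with the setting. The sum was called lower with DESeq2 size factors (-0.78, DESeq2 adjusted p = 0.014) and when scaling without miRNA (-2.28, edgeR adjusted p = 0.0057). Its log2 fold change was -0.63 without oxidized replicate 2. With tRNA and rRNA left out of the library size it was 0.02 (edgeR adjusted p = 0.96). Of the leucine rows tRNA-Leu-CTG went the other way, from 94.9 to 273 CPM (log2 fold change 1.52, edgeR adjusted p = 0.011). That call ended under the replicate block (0.072) and without total replicate 1 or 2 (0.30 and 0.31), and the value turned to -0.31 when scaling without miRNA (0.54). Its tRNA share was not called (log2 fold change 0.35, adjusted p = 0.50). Selenocysteine, with 1 row, had 24.8 and 5.33 CPM against 31.2 and 49.6 (log2 fold change -1.43, SE 0.92, edgeR adjusted p = 0.25). It was called lower when scaling without miRNA (-3.22, edgeR adjusted p = 0.034). Its log2 fold change was -2.92 without oxidized replicate 1 and -0.71 without oxidized replicate 2, fits that leave a lone oxidized library. The selenocysteine share of tRNA reads was not called (log2 fold change -2.55, SE 0.93, edgeR adjusted p = 0.061). That share was called lower by DESeq2 with the same totals (DESeq2 adjusted p = 0.018). It was also called lower with glutamate and glycine left out, no expression filter and estimated molecules (edgeR adjusted p = 0.020, 0.018 and 0.020). Under the replicate block it was not (0.23). Leucine reads outnumbered serine reads 3.84- and 2.87-fold in the total libraries, while serine reads outnumbered leucine reads 9.74- and 7.10-fold after oxidation. The serine-to-leucine ratio was thus 27.7 times as high after oxidation (exact permutation p = 0.333, the smallest possible). The leucine tRNA-share call ended under the replicate block (edgeR adjusted p = 0.12) and without total replicate 1 or 2 (0.24 and 0.15).

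**Figure D4:**
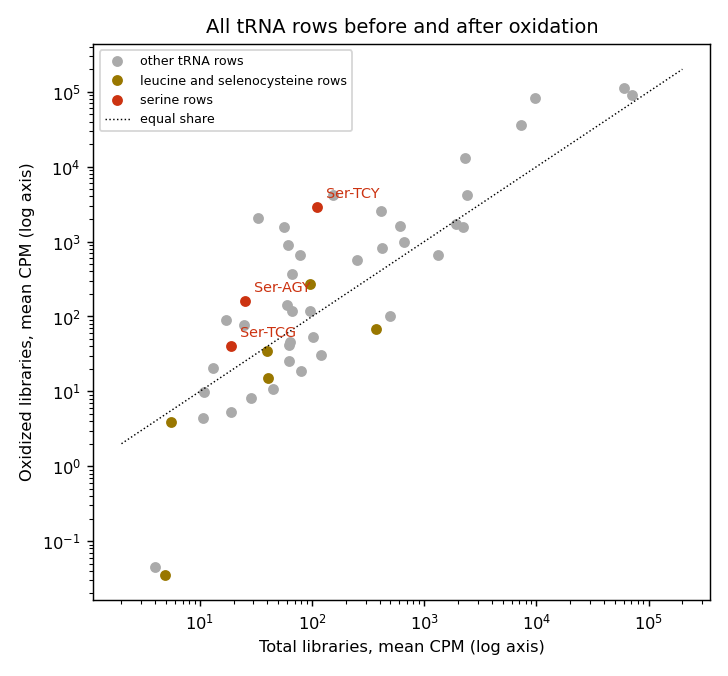
Mean CPM of each tRNA row with reads in both groups, total libraries (x) against oxidized libraries (y), log axes; the dotted line marks an equal share. The 3 serine rows (red) lie above the line, Ser-TCY by 26.6-fold, and leucine and selenocysteine rows (brown) lie on both sides of it.

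The pattern of tRNA-Ser-TCY over the 4 libraries was most like those of tRNA-Ala-GCG, tRNA-Ala-GCY and tRNA-Tyr-TAC, by the distance between centred log2(CPM + 1) values. The distances were 0.19, 0.27 and 0.88 on the log2 scale. tRNA-Ala-GCG rose 26.8-fold to 4147 CPM and tRNA-Ala-GCY 27.6-fold to 1561 CPM (edgeR adjusted p = 0.0020 and 0.0023). tRNA-Tyr-TAC rose 14.8-fold to 896 CPM (edgeR adjusted p = 0.0040). With 4 libraries in 2 groups, rows of similar oxidized to total ratio are close by this measure.

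Measured against other small RNAs of the same library, there were 4.82 and 5.35 miRNA reads per serine tRNA read after oxidation, against 5405 and 3978 in the total libraries. Reads of transposable elements, a main source of piRNAs, numbered 150 and 152 per serine read after oxidation and 62.0 and 59.1 in total libraries. The groups did not overlap in either ratio, and transposable element reads per serine read were 2.49 times as many after oxidation (exact permutation p = 0.333 for both ratios, the smallest possible).

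**Figure D5:**
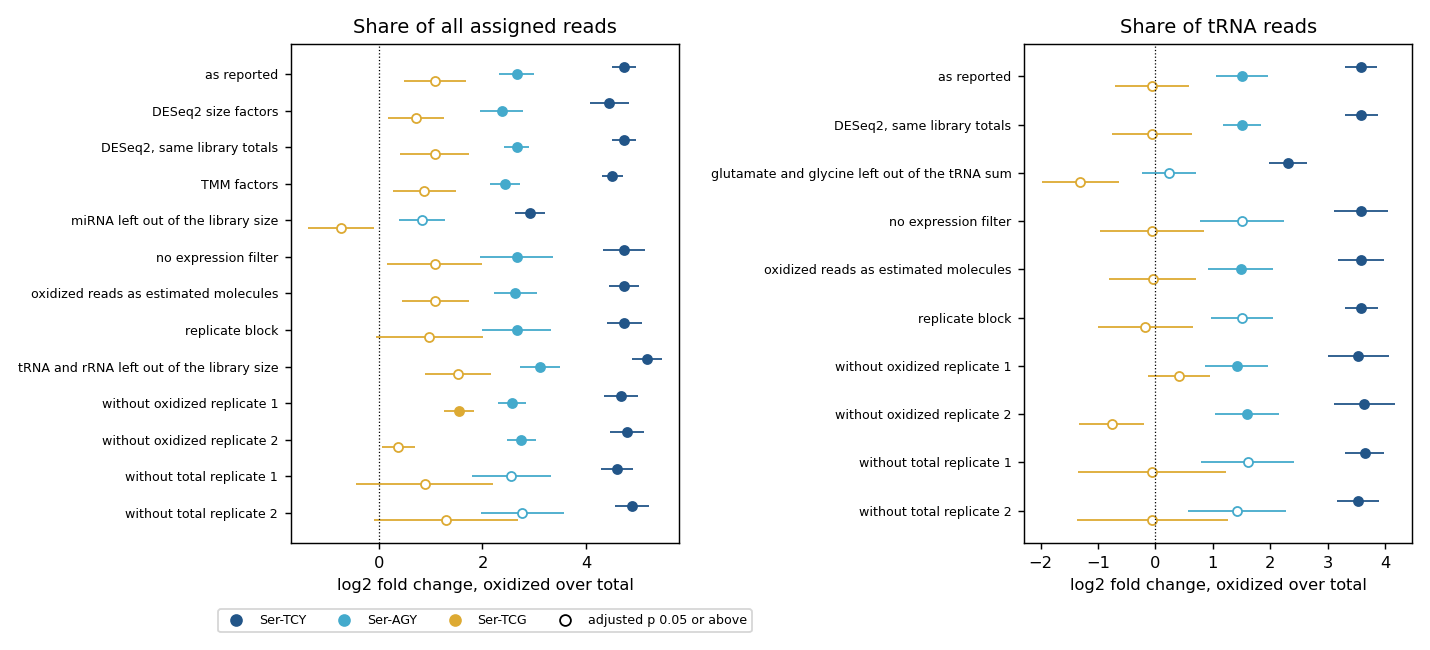
log2 fold change (oxidized over total) of 3 serine rows, with SE bars, as reported and under each alternative, as share of all assigned reads (left) and of tRNA reads (right); filled points have an adjusted p under 0.05. Ser-TCY is filled throughout both panels, whereas Ser-AGY turns open in 3 settings on the left and 5 on the right.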

How the data were processed

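Per the submitters' processing notes, the authors counted reads per feature with featureCounts on galGal6 and deposited raw counts in 6 tables per library, each unstranded and reverse-strand (48 files). The aligner, annotation and counter version are not given in the sources used here. The unstranded counts of the 6 tables entered a single edgeR 4.0.16 model (R 4.3.3; functions glmQLFit and glmQLFTest) after the default expression filter (1326 features), with Benjamini-Hochberg adjustment over all features at 0.05 and no TMM factor. The library size was the sum of the 6 tables (CPM) or of the tRNA table. For amino acid sums, tRNA rows were replaced by 1 row per amino acid (1297 features). SE was taken as the log2 fold change over the root of F, and fold as the ratio of mean shares. DESeq2 1.42.0 was an alternative. The fit was also run on simulated counts, where most features were unchanged and rises equalled falls in number. The real data differ, with a median log2 fold change of -5.25 and 57.3% of features called lower in CPM. That run therefore does not show how the fit behaves on these libraries. Permutation tests were exact, and intervals are Clopper-Pearson (95%). A count of 0 allows 3 reads. Depth was 10981001 to 17962725 reads per library. Intervals and floors cover the counting error of reads only, taking every read as a separate molecule. Copies made by PCR are counted too, so the error in molecules is larger. Reads per molecule were estimated as the median over other-gene rows seen in a single oxidized library (202 and 218 rows, minimum 20 reads).

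Same-numbered libraries were taken as portions of the same sample, because the series text says samples were split, although no label ties the numbers. Their deviations from the group means correlated at 0.044 over 1326 features. The reported fits did not use this pairing, which entered only the ratios of same-numbered libraries and the replicate block. All serine rows were named, as were the amino acid sums and the 3 rows nearest to tRNA-Ser-TCY. Members, lists and alternatives were chosen with earlier results of these data known. No tRNA sequence was used.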

Additional observations from a re-analysis of the deposited data

Results flagged for a closer look

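tRNA-Ser-TCG had antisense reads in the reverse-strand tables, which the comparisons above do not use: 3.09% of its reads in total replicate 1 (9 of 291) and 6.52% in total replicate 2 (21 of 322), more than the 3 reads that a count of 0 allows. Over all tRNA rows the antisense share was 0.00257% and 0.00225% in these libraries. Other rows also stood far above that over both total libraries: tRNA-Phe-TTY (1.85%), tRNA-Met (0.701%), tRNA-Leu-CTG (0.671%) and tRNA-Ser-AGY (0.485%). With both total libraries added up, tRNA-Ser-TCG held the most antisense reads of any tRNA row. It had 30, ahead of tRNA-Lys-AAG with 22 and tRNA-Leu-CTG with 21. Its part of all antisense tRNA reads was 13.8% in total replicate 1 and 33.3% in total replicate 2. The oxidized libraries had 0 of 269 and 0 of 778, which allows up to 1.36% and 0.473% by the exact 95% interval. That interval takes every read as a separate molecule. By the untested estimate above, these reads stand for only 2.20 and 5.96 molecules. Whether the antisense share differed between the groups therefore cannot be told.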

How the results depend on the processing

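The serine sum kept its direction under all 12 alternatives in CPM (log2 fold change 2.52 to 4.78) and all 9 in the tRNA share (1.91 to 3.25). So did tRNA-Ser-TCY (2.92 to 5.18 and 2.31 to 3.64). The lowest values came from scaling without miRNA and from leaving glutamate and glycine out. The calls of both were also kept. Among these alternatives, the fits that leave out a library and the fit with estimated molecules are no further support for the calls. In CPM, 2 serine rows were called higher. The higher count was 1 when scaling without miRNA and 1 to 3 leaving out each library. The edgeR lower call of tRNA-Ser-TCA, which had no read after oxidation and is not counted as a result, ended (0 rows lower) with DESeq2 size factors, DESeq2 with the same totals, estimated molecules and the replicate block, and was made in 0 to 1 rows leaving out each library. In the tRNA share, where 2 rows were also higher, the higher count was 1 with glutamate and glycine left out, with no expression filter (tRNA-Ser-AGY adjusted p = 0.083) and with the replicate block, and 1 to 2 leaving out each library. The lower call gave 0 rows with estimated molecules and the replicate block, and 0 to 1 leaving out each library. The cause was not tested, except that leaving out any library leaves a lone sample in its group, assumed to vary like the others. Calls gained or lost in such fits are therefore uncertain. tRNA-Ser-TCG turned to -0.73 when scaling without miRNA (CPM) and ran from -0.76 to 0.41 leaving out each library (tRNA share). Among the serine sum and the serine rows, the replicate block changed no call but those named above. The median log2 fold change of all features also moved in the fits with tRNA rows kept apart. Leaving miRNA out moved it by -1.82, TMM by -0.19 and DESeq2 size factors by -0.49. Leaving tRNA and rRNA out moved it by 0.44, and leaving glutamate and glycine out by -1.25. In the CPM fit of amino acid sums that median was -5.60 as reported and -5.56 with TMM. The planned summing of spelling variants of a row could give no value, since serine has none. By the untested estimate of reads per molecule, tRNA-Ser-TCA and tRNA-Ser-TCG rest on few molecules, 0 and about 8.17 over both oxidized libraries.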

Other observations

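Among the 8 amino acids read by a full box of 4 codons, the row or rows for codons ending in Y had the highest CPM ratio of the box in 4: serine, alanine, proline and valine. In the TCN box of serine the ratios were 26.6 for TCY and 2.11 for TCG, and TCA had no read after oxidation. In the GTN box of valine they were 8.51 for GTY, 4.92 for GTG and 1.25 for GTA. In the GCN box of alanine they were 40.4 for the 2 GCY rows together and 26.8 for GCG, and GCA had no reads. The row tRNA-Ala-GCY alone had 27.6, close to GCG, while the row tRNA-Ala-GCY_ had 62.2. In the CCN box of proline they were close, at 2.64 for CCY, 2.28 for CCG and 1.98 for CCA, and none of these rows was called. In leucine the highest ratio was that of CTG (2.87), and in arginine that of the 2 CGA rows together (0.655). In glycine it was GGA (6.30, against 1.83 for GGY), and in threonine ACA (0.672, against 0.291 for ACY). With so few values to compare in each box, Y rows would lead in some boxes by chance alone. This grouping was made after the values were seen and was not tested.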
